A study of Mus musculus with 7 samples.

Results

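Trpv6 and Trpv5 encode the apical calcium channels of transporting epithelia, and the vitamin D receptor (VDR) peaks around them were taken from chromatin immunoprecipitation and sequencing of proximal small-intestinal epithelium. A peak was a member when its centre lay within 100 kb of the body of either gene. There were 30 such peaks of 169686 in the 6 lists, and they merged into 12 regions of 87029. The wild-type mice were 8 weeks old and were given 1,25(OH)2D3 (3 libraries) or vehicle (3 libraries), and the dose of this active vitamin D hormone was 10 ng for each g of body weight. Tissue from duodenum and jejunum was collected after 1 h, and the epithelium was shed with EDTA. The mice of both groups ate standard chow, and their strain and sex are not given in the sources used here. Whether any 2 libraries shared a mouse is not stated in the labels, and p values measure only the spread between libraries, which may be technical.

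In the intestine, 1,25(OH)2D3 binds VDR, which pairs with a retinoid X receptor and binds DNA at direct repeats of a hexamer with a 3-base spacer (DR3 elements). Calcium then enters enterocytes from the lumen through TRPV6, crosses the cell bound to calbindin-D9k and leaves through the basolateral pump PMCA1. TRPV6 is the channel of the intestinal brush border, while its close relative TRPV5 is known mainly for calcium reabsorption in the kidney.

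Depth was 17152461, 17438643 and 66524392 tags in hormone replicates 1 to 3 and 19733260, 15991198 and 68560701 in vehicle replicates 1 to 3, and both libraries numbered 3 are called deep below. The main chromosomes carried 25509, 30390 and 41721 peaks in the hormone lists, against 8755, 14887 and 48424 in the vehicle lists. The lists give a position for each peak and no tag count. Comparisons therefore rest on peaks being present or absent, on their place in the list and on where their centres lie. A called peak cannot separate more cells with bound receptor from more receptor per cell. No expression values accompany the peaks, so the labelled epithelium was not checked against marker genes.

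The genes lie side by side on chromosome 6 (mm9) on the minus strand. Trpv6 (ENSMUSG00000029868.7) spans 41570620 to 41586404 and Trpv5 (ENSMUSG00000036899.4) spans 41602172 to 41630768, with 15.8 kb between them. The windows also hold Prss2, a trypsinogen gene, Ephb6, an ephrin receptor gene, Kel, the Kell blood group gene, 1700034O15Rik, Olfr459, an olfactory receptor gene, and segments of the T cell receptor beta locus. Of the 12 regions, 8 lay in the Trpv6 window, 11 in the Trpv5 window and 7 in both.

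The sequences below are the 201 bases around the centre of each region that had a peak in at least 2 libraries, since these regions carry the comparison between hormone and vehicle. They are read from mm9, plus strand, 5′ to 3′, and the capitals mark the half-sites of the closest match to a DR3 element.
Trpv6 1.93 kb upstream, chr6:41588235-41588435: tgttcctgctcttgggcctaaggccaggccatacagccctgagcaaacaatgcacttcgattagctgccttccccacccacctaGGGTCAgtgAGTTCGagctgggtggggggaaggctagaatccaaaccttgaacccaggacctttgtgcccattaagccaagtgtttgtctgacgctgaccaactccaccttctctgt
Trpv6 3.97 kb upstream, chr6:41590276-41590476: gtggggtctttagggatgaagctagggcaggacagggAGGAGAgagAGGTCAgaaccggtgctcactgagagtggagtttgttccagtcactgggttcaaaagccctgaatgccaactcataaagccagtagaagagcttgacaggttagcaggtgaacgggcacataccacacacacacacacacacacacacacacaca
Trpv6 intron, chr6:41583022-41583222: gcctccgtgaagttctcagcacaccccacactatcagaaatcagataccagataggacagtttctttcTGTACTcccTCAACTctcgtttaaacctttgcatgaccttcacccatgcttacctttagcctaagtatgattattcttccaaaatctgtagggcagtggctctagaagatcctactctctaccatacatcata
Trpv5 64.4 kb upstream, chr6:41695039-41695239: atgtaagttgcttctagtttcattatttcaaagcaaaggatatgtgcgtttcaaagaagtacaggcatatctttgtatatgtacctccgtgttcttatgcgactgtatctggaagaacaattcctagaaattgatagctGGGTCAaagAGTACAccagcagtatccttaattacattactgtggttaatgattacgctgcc
Trpv5 76.7 kb upstream, chr6:41707372-41707572: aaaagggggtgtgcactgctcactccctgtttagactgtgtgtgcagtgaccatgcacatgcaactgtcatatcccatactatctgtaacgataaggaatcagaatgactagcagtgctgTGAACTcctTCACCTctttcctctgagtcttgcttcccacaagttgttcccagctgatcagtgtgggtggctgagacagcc

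A DR3 element was searched on both strands as 2 half-sites, each a purine, G, G or T, T, C or G and A, with any 3 bases between them, allowing 1 mismatch over the 12 fixed positions. It was found in 6 of the 12 regions, against 10.9% of all 87029 regions and 4.13% of windows 5 kb to the right of them. The share was higher, at 28.1%, among regions present in all 6 libraries. Among regions present in all 3 hormone libraries and no vehicle library it was 20.6%. The elements are shown on their own strand, with the half-sites in capitals, so that they can be compared. The sixth is from a region in an exon of Ephb6 described further on.
Trpv6 1.93 kb upstream: GGGTCAgtgAGTTCG
Trpv6 3.97 kb upstream: AGGAGAgagAGGTCA
Trpv6 intron: AGTTGAgggAGTACA
Trpv5 64.4 kb upstream: GGGTCAaagAGTACA
Trpv5 76.7 kb upstream: AGGTGAaggAGTTCA
Ephb6 exon: AGGCCAcagGGTTCA

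The region 76.7 kb upstream of the Trpv5 start held the only element with 0 mismatches, a form found in 1.64% of all regions and in 5.80% of those present in all 6 libraries. In the region 1.93 kb upstream of Trpv6 and in the one 64.4 kb upstream of Trpv5, the first half-site matched in full and the second carried the mismatch. In the region 3.97 kb upstream of Trpv6 the mismatch was in the first half-site, and 4 further elements with 2 mismatches lay within 100 bp of the centre. The element starting at 41590304 overlapped the shown one and shared its half-site AGGAGA. An element with at most 2 mismatches was in 46.0% of all regions and in 34.4% of windows 5 kb to the right. Other members, such as the region 1.93 kb upstream of Trpv6, also held further elements with 2 mismatches.

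Of the 12 regions, 3 were present in every library, 1 near Trpv6 and 2 far upstream of Trpv5, beside 4.99% of all regions in the series. The region upstream of Trpv6 spanned 41588158 to 41588512, between the genes, and was centred 1.93 kb upstream of the Trpv6 start and 13.8 kb beyond the far end of Trpv5. Its place in each list was expressed as a percentile, 100 being the first peak; the value that orders the lists is not stated, so a percentile is no measure of occupancy. It stood at the 77.6, 91.0 and 90.0 percentile in hormone replicates 1 to 3 and at 83.8, 92.6 and 87.1 in vehicle replicates 1 to 3. The ranges of the groups overlapped. The peak centres of the 6 libraries fell within 70 bp of one another, and the DR3 element lay 11 to 42 bp from them with hormone and 15 to 28 bp with vehicle.

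The first of the far regions spanned 41694960 to 41695318, between Kel and Olfr459. It was centred 64.4 kb upstream of the Trpv5 start and 109 kb from the body of Trpv6, and so belonged to the Trpv5 window alone. Hormone libraries listed it at the 97.4, 95.8 and 97.7 percentile, and vehicle libraries at 87.3, 97.8 and 99.0. Averaged over its libraries it stood higher in the lists than any other member, at 95.8, and 14.6% of the 4345 regions found in all 6 libraries were placed above it. In each of the 6 libraries it was the member placed highest in the list.

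The other far region spanned 41707306 to 41707638, 76.7 kb upstream of Trpv5 and 12.3 kb from the one just described. Its percentiles were 86.6, 92.4 and 90.6 with hormone and 83.8, 86.4 and 97.8 with vehicle, again with overlapping ranges. Its element with 0 mismatches lay 3, 6 and 22 bp from the peak centre in hormone libraries and 43, 26 and 53 bp in vehicle libraries. In the region 1.93 kb upstream of Trpv6 these distances overlapped between the groups. They also overlapped in the first far region, at 39, 50 and 8 bp with hormone and 13, 46 and 85 bp with vehicle. How often the groups separate in this way over all regions was not counted, and no test was run. The gene starts nearest to both far regions were those of Olfr459, at 27.2 and 14.9 kb, and Kel, at 40.8 and 53.1 kb. The lists do not tell which gene a region serves.

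**Figure D1:**
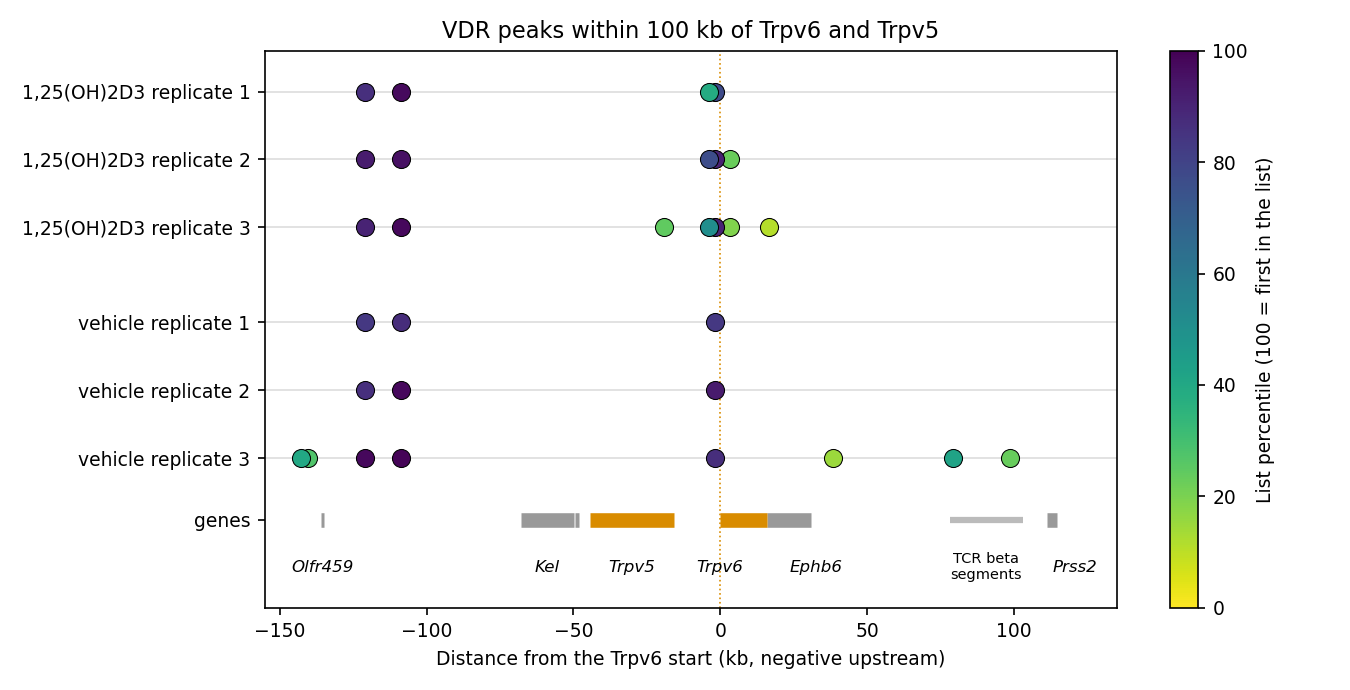
VDR peaks within 100 kb of Trpv6 and Trpv5, by library (rows) and by distance from the Trpv6 start in kb (negative upstream), coloured by list percentile; orange bars are Trpv6 and Trpv5 and grey bars are neighbouring genes. The 3 positions filled in all 6 rows lie 1.93 kb, 109 kb and 121 kb upstream of the Trpv6 start, and 5 peaks appear in vehicle replicate 3 alone.

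A single region was present in all 3 hormone libraries and in no vehicle library, beside 5.39% of all regions. It spanned 41590204 to 41590548, 3.97 kb upstream of the Trpv6 start and 2.04 kb from the region present in every library. Its list percentiles were 38.7, 76.7 and 51.0 in hormone replicates 1 to 3. Among all regions of this class the median percentile was 51.0. Vehicle replicate 3 had no peak there. Its tag threshold was 17 tags, or 2.48 for every 10000000 tags sequenced, the lowest of the 6 libraries on that scale. Hormone replicates 1, 2 and 3, which had the peak, required 5.83, 6.31 and 3.01 on the same scale. Peaks also had to pass filters against input and local signal, whose values are not in the lists. The share of all tags that lay in peaks was 11.86%, 15.89% and 18.96% with hormone and 2.58%, 4.81% and 8.10% with vehicle, and its part in the result was not tested. With lists cut to the length of the shortest, 8755 peaks, hormone replicate 2 alone kept this peak, and no region of the class was left near the genes.

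Across the genome, 191 of the 4687 regions found with hormone only (4.08%) had a region present in all 6 libraries within 5 kb, and the median distance was 71.9 kb.

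Inside the Trpv6 gene, a region in an intron, 3.28 kb downstream of the start and spanning 41582976 to 41583268, had a peak in hormone replicates 2 and 3 at the 22.7 and 18.9 percentile, and none in hormone replicate 1 or any vehicle library. Both peak centres fell within 7 bp, and its DR3 element of 1 mismatch lay 23 and 30 bp away. Regions in exactly 2 hormone libraries and no vehicle library made up 6.95% of the series.

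**Figure D2:**
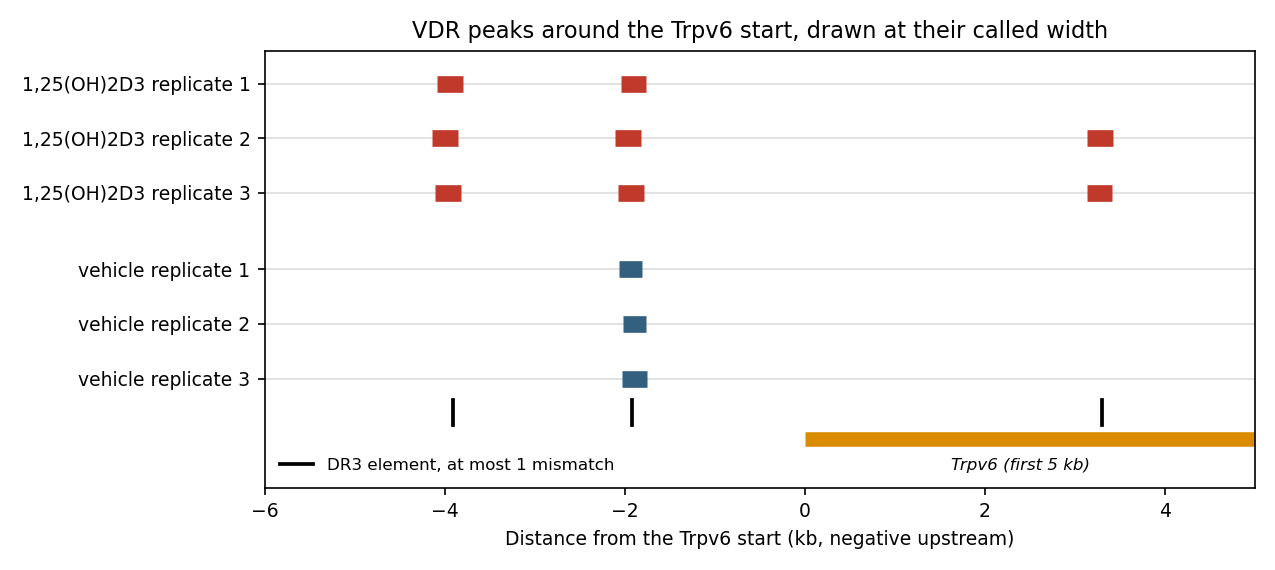
VDR peaks at their called width from 6 kb upstream to 5 kb downstream of the Trpv6 start (x axis, kb), by library (rows); black ticks mark DR3 elements with at most 1 mismatch and the orange bar the gene. Vehicle libraries have the peak 1.93 kb upstream only, while every hormone library also has the peak 3.97 kb upstream and hormone replicates 2 and 3 have the intron peak at 3.28 kb.

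Within 10 kb of the Trpv6 body, peaks numbered 2, 3 and 4 in hormone replicates 1 to 3 and 1 in each vehicle library. The groups did not overlap, with 3 ± 1 peaks with hormone and 1 ± 0 with vehicle (SD, n = 3 each, exact two-sided permutation p = 0.1, the smallest that 3 against 3 allows). Over all 22367 protein-coding genes, 9.82% likewise had more peaks in every hormone library than in every vehicle library at this distance. As many peaks or more were near 14.7% of genes with hormone and near 33.1% with vehicle. With lists cut to the length of the shortest, 8755 peaks, the separation at Trpv6 was lost. Every library then kept the peak of the region present in all of them, and hormone replicate 2 alone kept another, so the groups met. Counts scaled to list length were not compared at this distance. Trpv5 had 0, 0 and 1 peaks within 10 kb in hormone replicates 1 to 3 and 0 in every vehicle library (exact permutation p = 1). As many peaks or more as at Trpv5 were near 64.0% of genes with hormone. The lone Trpv5 peak was in an intron, 25.3 kb downstream of the start (41605286 to 41605568), at the 24.3 percentile, with 2 mismatches in its closest DR3.

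Within 50 kb, Trpv5 had 2, 3 and 5 peaks in hormone replicates 1 to 3 and 1 in each vehicle library (3.33 ± 1.53 and 1 ± 0, SD, n = 3 each, exact permutation p = 0.1). These groups did not overlap, as was so for 16.0% of protein-coding genes in that direction. The peaks came from the regions already given near Trpv6, together with the Trpv5 intron region and 1 in an exon of Ephb6. Trpv6 had 2, 3 and 5 peaks within 50 kb with hormone, against 1, 1 and 2 with vehicle (exact permutation p = 0.2), and the groups met at 2.

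At the full distance of 100 kb, hormone and vehicle libraries overlapped in peak number. Around both genes together it was 4, 5 and 7 with hormone and 3, 3 and 8 with vehicle (5.33 ± 1.53 and 4.67 ± 2.89, SD, n = 3 each, exact permutation p = 0.8). Around Trpv6 it was 2, 3 and 5 with hormone and 1, 1 and 4 with vehicle (3.33 ± 1.53 and 2 ± 1.73, exact permutation p = 0.5). Around Trpv5 it was 4, 5 and 7 with hormone and 3, 3 and 7 with vehicle (5.33 ± 1.53 and 4.33 ± 2.31, exact permutation p = 0.6). Each p was 0.8 after Benjamini-Hochberg adjustment over these 3 tests. In each test vehicle replicate 3 lay within or above the hormone range. Compared by replicate number, hormone was higher in 3 of 3 pairs around Trpv6 (exact permutation p = 0.25 within pairs, the smallest that 3 pairs allow), in 2 pairs around Trpv5, with 1 equal, and in 2 of 3 around both genes together. For 69.9% of all protein-coding genes the hormone mean was the higher one at this distance. Scaled to 10000 peaks per library, the Trpv6 window held 0.990 peaks with hormone and 0.880 with vehicle, a difference of 0.110, against 1.33 unscaled. For the other two the direction turned: the windows of both genes held 1.63 peaks with hormone and 2.36 with vehicle (hormone minus vehicle -0.734, against 0.667 unscaled), and the Trpv5 window 1.63 and 2.30 (-0.665, against 1 unscaled). Around both genes, replicates 1 and 2 averaged 4.5 peaks with hormone and 3 with vehicle, whereas the deep pair had 7 and 8. The median protein-coding gene had 4.67 peaks with hormone and 3 with vehicle. Regions in all 6 libraries numbered 1 around Trpv6 and 3 around Trpv5, and 41.7% of genes had at least as many as Trpv6 and 8.28% at least as many as Trpv5.

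The remaining members were found in 1 library each, which was also true of 62.6% of all regions. Vehicle replicate 3 alone held 5 of them, at percentiles of 14.9 to 41.9. Of these, 3 lay on the Ephb6 side, 22.5, 63.6 and 82.7 kb outside the Trpv6 body, the farther 2 among T cell receptor beta segments, and 2 lay beyond Olfr459, 96.0 and 98.4 kb outside the Trpv5 body. None of the 5 had a DR3 element with at most 1 mismatch, and the share among all 32166 regions found in vehicle replicate 3 only was 4.13%. Their GC content was 27.4% to 39.8%, and the median over all regions of that class was 39.3%. Regions with a peak in at least 1 hormone library had a median GC content of 46.8% in the series, and 15.5% of them held a DR3 element; here 6 of the 7 such regions held one, with a GC content of 37.3% to 54.7% over the 7. Hormone replicate 3 alone held the Trpv5 intron region and a region in an exon of Ephb6 (41569809 to 41570091), 0.670 kb beyond the far end of Trpv6, at the 11.0 percentile with its DR3 element 4 bp from the peak centre. No region was present in all vehicle libraries and absent with hormone, a class that held 0.0299% of the series.

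**Figure D3:**
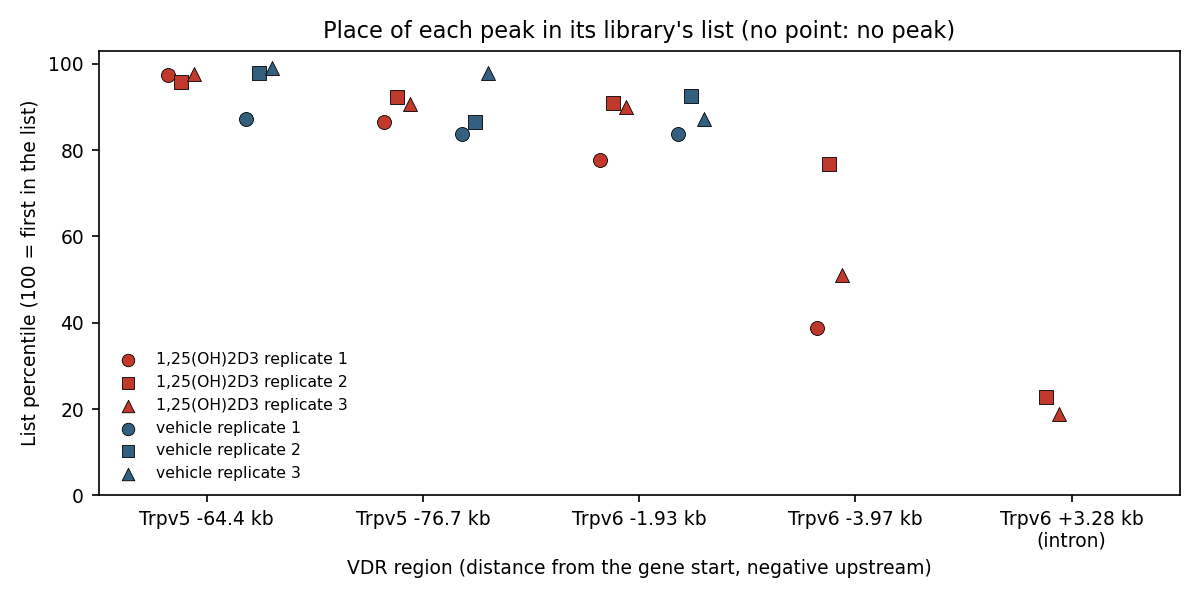
List percentile (y axis, 100 for the first peak of a list) of the 5 regions with a peak in at least 2 libraries, by library (colour for treatment, symbol for replicate); a missing point means no peak. The 3 regions present in all libraries stand between 77.6 and 99.0, and the 2 found with hormone only stand between 18.9 and 76.7.

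Other genes of calcium handling were counted in the same way, from a list of 13 reported here that includes both channels. Of the 11 others, 5 had, within 100 kb, more peaks in every hormone library than in every vehicle library and 0 the reverse, beside 18.9% and 0.0179% of all protein-coding genes. These were S100g, which encodes calbindin-D9k (6, 6 and 7 peaks with hormone, 2, 2 and 4 with vehicle), the calmodulin genes Calm2 and Calm3, and Cldn2 and Cldn15, which encode pore-forming claudins. Calm2 had 18, 20 and 20 peaks in hormone libraries, against 9, 9 and 10 in vehicle libraries. Calm3 had 5, 4 and 5 with hormone and 0, 0 and 3 with vehicle. The claudin genes had 8, 9 and 10 (Cldn2) and 12, 16 and 16 (Cldn15) with hormone, against 3, 5 and 5 (Cldn2) and 5, 9 and 8 (Cldn15) with vehicle. Trpv6 and Trpv5 themselves were not among them, because vehicle replicate 3 reached the hormone range. Leaving it out, both had more peaks in every hormone library, as did 9 of the 11 other genes and 55.8% of all protein-coding genes. The median difference between group means was 3.67 peaks over these 13 genes and 1.67 over all protein-coding genes. The hormone mean was the higher one for 76.9% of the 13, 72.7% of the 11 others and 69.9% of all protein-coding genes. In the same list, Cldn12, a further claudin gene, averaged 0.333 peaks under hormone against 0.667 under vehicle. Casr averaged 2 in both groups. Slc8a1, a sodium-calcium exchanger, had no peak in any hormone library and 0, 0 and 5 with vehicle.

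The remaining vanilloid-type TRP channels, which are not selective for calcium in the way TRPV6 and TRPV5 are, also had VDR peaks within 100 kb. Trpv2 had 18, 17 and 21 with hormone and 8, 13 and 14 with vehicle, and Trpv4, an osmotically sensitive channel, had 6, 9 and 12 with hormone and 2, 1 and 5 with vehicle. Neither pair of groups overlapped, so that 2 of these 4 genes had more peaks in every hormone library, beside 18.9% of all protein-coding genes. Trpv1, the capsaicin receptor, had 10, 17 and 16 with hormone and 6, 5 and 11 with vehicle, and Trpv3, a heat-sensitive channel of skin, had 8, 15 and 14 with hormone and 4, 4 and 8 with vehicle. Trpv1 and Trpv3 are neighbours on chromosome 11 and share peaks, so they are not separate observations. No test was run for these single genes.

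**Figure D4:**
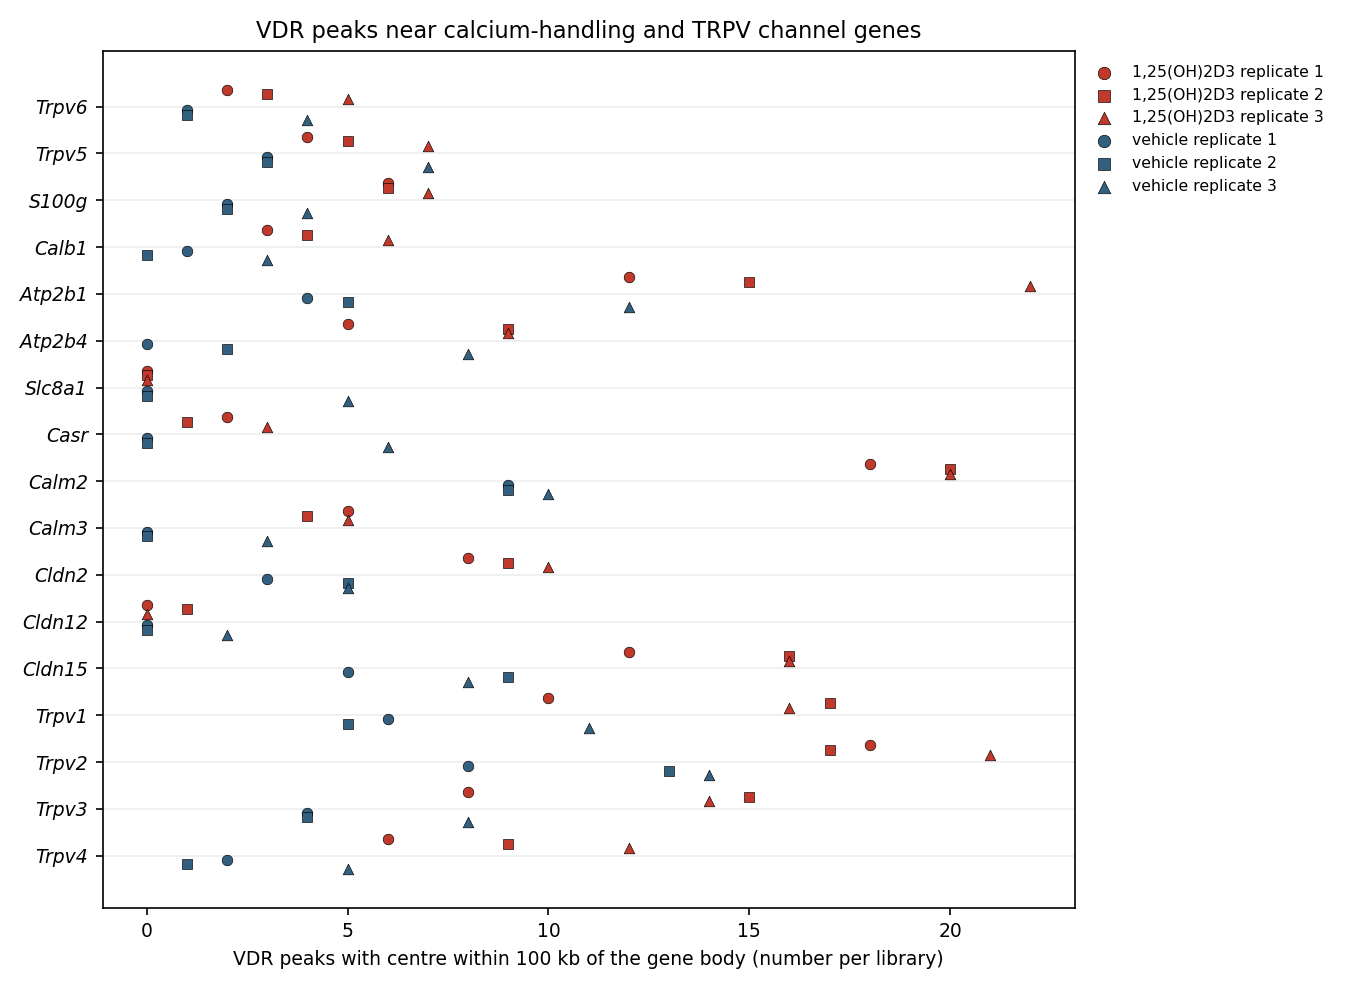
Number of VDR peaks within 100 kb of each gene body (x axis) for calcium-handling and TRPV channel genes (rows), by library, with hormone in red and vehicle in blue. Trpv6 and Trpv5 have between 1 and 7 peaks in every library, and at both vehicle replicate 3 reaches into the hormone range.

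Gene by gene, the Trpv6 pattern of peak numbers over the 6 libraries was shared exactly by 7 protein-coding genes more than 1 Mb away. The 3 closest in list percentile as well were Tbc1d7, Gm5551 and Htr5a, the last pair being neighbours on chromosome 5. No gene matched Trpv5 exactly, and Copb2 was among the closest, differing by 1 peak in 1 library.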

How the data were processed

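VDR chromatin immunoprecipitation was compared between 3 1,25(OH)2D3 and 3 vehicle libraries, grouped by their titles. The only input library listed carries the hormone dose, and it was not analysed here. Per the submitters' processing notes, reads were aligned to mm9 with Bowtie and peaks called with HOMER, without versions. Libraries were called separately, per the file headers, at a false discovery rate of 0.001, with at least 4-fold more tags than 1 shared input and than the surrounding 10 kb, a Poisson p of 0.0001 and a clonal filter of 2. In the deposited lists the score of all peaks is 1, and the columns used are start and end positions in bases.

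Peaks were merged across libraries at an overlap of at least 1 bp, and genes came from GENCODE mouse release 1 on mm9, in which 0 regions ran past a chromosome end. Elements were searched within 100 bp of region centres. Python 3.11.15 was used, and the merging, element search and permutation tests were tested on simulated data. Group labels were permuted exactly, two-sided, with a threshold of 0.05. Regions with a peak in at least 2 libraries were named, as were listed genes with separate groups and the genes most alike in peak number; the values of some genes that these rules named are not reported here. The members, gene lists and rules were chosen with earlier results of these data known. Same-numbered libraries deviated together in peaks within 100 kb over 22367 genes (r across genes 0.41, 0.12 and 0.33), which was taken as pairing by number. Hormone and vehicle libraries of different number gave r from -0.40 to 0.05. Both libraries numbered 3 are deep, so pairing and shared depth cannot be told apart from these values. The labels do not state what a number shares. Alternatives covered window, overlap, list length, scaling, pairing, mismatches and leaving out libraries. Separation by depth was added after the data were seen.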

Additional observations from a re-analysis of the deposited data

How the results depend on the processing

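The difference in peak number (hormone minus vehicle) around both genes reversed, to -0.734 per 10000 peaks of the library and -1 in the deep pair, and ranged from -0.167 (without 1,25(OH)2D3 replicate 3, vehicle replicate 1 or vehicle replicate 2) to 2.33 (without vehicle replicate 3) when libraries were left out. Around Trpv5 it reversed to -0.665 per 10000 peaks and ranged from 0.167 to 2.33 when libraries were left out, and around Trpv6 it ranged from 0.5 to 2.33 when libraries were left out. Around Trpv6 it was 0.110 per 10000 peaks, and with lists of equal length it was 0.333 in each of the 3 counts, against 0.667, 1.33 and 1 around both genes, Trpv6 and Trpv5. Within 50 kb the differences were 2 around both genes, 2 around Trpv6 and 2.33 around Trpv5 (exact permutation p = 0.2, 0.2 and 0.1). With the replicate number as a block the differences were 0.667, 1.33 and 1 around both genes, Trpv6 and Trpv5 (exact permutation p = 0.75, 0.25 and 0.5, the smallest possible being 0.25). Without the block the smallest possible p was 0.1. Neither test could reach the threshold of 0.05, so they cannot show whether pairing matters. Regions in all hormone and no vehicle libraries numbered 1. The number was 0 with lists of equal length and also when only the upper part of each list, by position, was kept. It was 1 to 2 when a library was left out (2 without 1,25(OH)2D3 replicate 1) and 4 in the deep pair. Regions in all 6 libraries numbered 3, and 1 within 50 kb. Regions with vehicle only numbered 0, and 5 in the deep pair. DR3 elements with 0 mismatches were in 1 region. The cause of these changes was not tested, except that the narrower window leaves out both far regions. Of the 12 regions, 7 were in 1 deep library alone, 2 in the hormone and 5 in the vehicle library, beside 14.6% and 37.0% of all regions; the part of depth in this was not tested.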

Other observations

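Short motifs of other intestinal factors were counted in the 12 regions. The GATA motif AGATAA, searched on both strands within 100 bp of the centre, was in 1 of 12 regions, a region of vehicle replicate 3 alone, and in 18.4% of all regions. The motif CATAAA, part of the site bound by CDX factors, was in 1 of 12, the region 3.97 kb upstream of Trpv6, and in 16.2% of all regions. The AP-1-like motif TGANTCA, with any base allowed in the middle, was in 2 of 12, both in vehicle replicate 3 alone, and in 10.9% of all regions. These matches read TGAGTCA and TGATTCA, and only the former has the middle G or C of an AP-1 site. The HNF4 motif CAAAGTCCA was in 0 of 12 and in 1.56% of all regions.

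No region lay within 1 kb of the start of either calcium channel. In RefSeq promoters of GRCm38.p6, from 250 bases before to 50 after a start, the closest DR3 had 2 mismatches at both Trpv6 and Trpv5, and 5.98% of 32851 promoters held one with at most 1 mismatch.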
